A study of Mus musculus with 6 samples.

Results

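SNARE proteins are the membrane proteins that drive the fusion of vesicles with their target membranes, and the genes described here encode the SNAREs and the proteins that regulate them. They were chosen by symbol in the probe annotation: symbols that begin with Vamp, Stxbp, Vti1, Bet1 or Gosr, or with Stx or Snap followed by a digit, together with Ykt6, Use1, Napa, Napb, Napg and Nsf. A gene also needed a probe with a detection p under 0.05 on at least 3 of the 6 arrays. Of 44 genes with such a symbol, 39 met this condition, out of 9370 named genes measured in all.

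The study compared 2 populations of dendritic cells, mannose receptor (MR) positive and MR-negative cells, with 3 arrays of each. Mouse bone marrow cells had been grown for 1 week with GM-CSF, which drives them towards dendritic cells, and had then been given ovalbumin carrying a fluorescent dye, by which a flow cytometric sort parted the 2 populations. The sorted cells got no other treatment per the labels, and no source used here gives the strain, age or genotype of the mice. Total RNA was hybridised to Illumina bead arrays, whose titles carry the numbers M1 to M3 in each population, and the study's title places the comparison in work on PPARγ, antigen cross-presentation and cross-priming.

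A SNARE on a vesicle (an R-SNARE, such as a VAMP) zips together with SNAREs on the target membrane (Q-SNAREs: syntaxins, SNAP proteins and smaller partners) into a bundle that pulls both membranes together. Proteins of the Munc18 and tomosyn families bind syntaxins and promote or hold back this step. After fusion the ATPase NSF and its adaptor proteins, the soluble NSF attachment proteins, take the bundle apart for another round. In dendritic cells such fusion steps carry MHC molecules, internalised antigen and cytokines between the endoplasmic reticulum, endosomes, phagosomes and the cell surface.

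Each array detected 35.3% to 36.8% of the 45281 probes. The mannose receptor gene Mrc1 checks the labels. Its normalized log2 intensity was 12.67, 11.66 and 11.76 on the MR-positive arrays M1, M2 and M3, against 10.12, 8.74 and 9.33 on the MR-negative arrays. The M1 arrays stood somewhat apart from the others of their population, with correlations across tested probes of 0.977 and 0.981 in MR-positive and 0.968 and 0.977 in MR-negative cells, where the M2 and M3 arrays correlated at 0.992 in either population. Dendritic cell marker genes were present in both populations. By summed linear intensity the 10 tested genes of that list, of which 8 fell and 1 rose (8 and 2 with the title number as a block), ran from 19119 to 24356 on MR-positive and from 34746 to 40511 on MR-negative arrays, and Zbtb46 and Dpp4 of that list were detected on no MR-positive array. The description labels number each MR-positive array as replicate 2 and each MR-negative array as replicate 1, which conflicts with the title numbers M1 to M3 used here. Nothing in the labels tells if M1 to M3 are separate cultures or animals. The p-values therefore cover the spread among these arrays alone, and that spread may be technical.

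Most SNARE genes did not pass the test between the populations. Of the 39, 3 were higher in MR-positive cells (Stxbp5, Napg and Stxbp4), 2 were lower (Stx11 and Vamp5) and 34 did not pass, by limma with an adjusted p under 0.05 over all 16686 probes tested. The SNARE genes called higher were 7.69% of the 39 and those called lower 5.13%, near the background of 8.19% and 7.13% over all 9370 named genes. At an unadjusted p under 0.05, with the brightest tested probe standing for each gene, the same 5 SNARE genes were called (12.8%), against 29.3% of all named genes. The median log2 difference, MR-positive minus MR-negative, was 0.10 for the SNARE genes and 0.02 for all named genes, and the median absolute difference was 0.17 and 0.22. The SNARE genes ran from -1.59 to 0.58 on this scale. A difference above 0 was seen in 28 of 39, against 53.3% of all named genes, and in 15 of 39, against 36.6% of all, when arrays were scaled to equal medians. For 33 of the 34 genes that did not pass, the 95% interval of the difference lay within 2-fold in either direction. The exception was Bet1l, at 0.31 with an interval from -0.41 to 1.04. These intervals are of the measured values of the brightest probes. For genes near background, such as Napb, Stx19 and Vamp1, they do not bound the change in RNA.

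**Figure D1:**
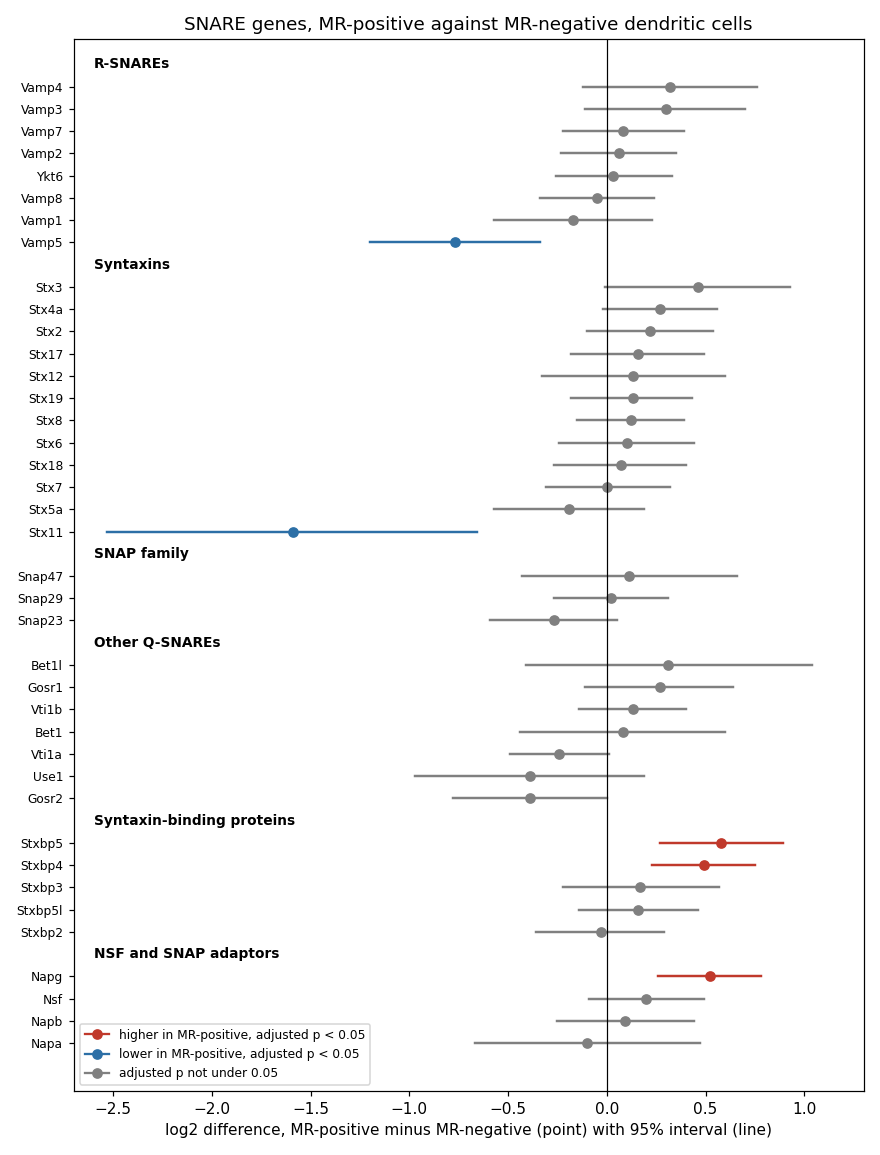
Log2 difference of each of the 39 SNARE genes between MR-positive and MR-negative dendritic cells (points, MR-positive minus MR-negative) with its 95% interval (lines), grouped by role. Stx11 at -1.59 and Vamp5 lie left of 0, Stxbp5 at 0.58, Napg at 0.52 and Stxbp4 lie right of it, and no other gene passed the test. Vamp5 was detected on no MR-positive and Stxbp4 on no MR-negative array, so their points are measured values. For these genes the data give only bounds, at least 1.46-fold lower and at least 1.32-fold higher. The bounds compare means on the scale used here and carry no interval.

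Stx11 encodes a syntaxin without a membrane-spanning segment, and in humans its loss impairs the release of lytic granules by cytotoxic lymphocytes. It showed the largest difference of the SNARE genes. Its log2 intensity was 7.46, 8.58 and 8.40 on the MR-positive arrays M1 to M3, against 8.96, 10.20 and 10.06 on the MR-negative arrays. Every MR-positive array was below every MR-negative one, and the M1 array was the lowest of its population in both. The mean was 8.15 ± 0.61 in MR-positive and 9.74 ± 0.68 in MR-negative cells (SD, n = 3 each), a 3.02-fold lower level in MR-positive cells (log2 difference -1.59 ± 0.40, SE, limma adjusted p = 0.0389). Within the title numbers the difference was -1.50 for M1, -1.62 for M2 and -1.66 for M3, and with the title number as a block the adjusted p was 8.9e-05. Stx11 did not pass without the MR-positive array of M1 (adjusted p = 0.0784), M2 (0.0654) or M3 (0.0944), or without the MR-negative array of M2 (0.121) or M3 (0.14). It passed without the MR-negative array of M1 (0.00746) and without both M1 arrays (4.13e-04). When all probes were tested without a filter on dim ones, its adjusted p was 0.188.

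Most tested marker genes of mature dendritic cells, and some of NK, T and B cells, were lower in MR-positive cells, as Stx11 was. Of 11 tested markers of mature dendritic cells, 9 fell and 0 rose by limma (10 had an unadjusted p under 0.05). Their summed linear intensity ran from 3191 to 4494 on MR-positive and from 8604 to 13478 on MR-negative arrays, and Ccl22 of this list was detected on no MR-positive array. Of 3 tested NK cell markers 2 fell, with sums of 104 to 154 in MR-positive and 433 to 1576 in MR-negative cells, while Ncr1, Klrb1c, Gzmb and Eomes did not pass the detection filter. Of 4 tested T cell markers 2 fell and 1 rose, with sums of 114 to 139 in MR-positive and 1708 to 3609 in MR-negative cells. Most of the MR-negative sums came from Cd3g alone, at log2 intensities of 10.53, 11.56 and 11.42 on the MR-negative arrays. Cd3e, Cd247, Cd4, Cd8a and Cd5 of that list did not pass the detection filter, and Cd3d and Klrk1 were detected on no MR-positive array. Cd2, the T cell marker that rose, was detected on no MR-negative array. Of 2 tested B cell markers 1 fell (sums of 41 to 56 in MR-positive and 57 to 143 in MR-negative cells). That was Blk, detected on no MR-positive array, while Cd79b differed by -0.04 (limma adjusted p = 0.923). Of 8 neutrophil markers none passed by limma, 5 had an unadjusted p under 0.05 and 6 were lower with the title number as a block. Their sums were 3363 to 5714 in MR-positive and 5363 to 17587 in MR-negative cells. In these sorted populations, fewer cells of a type and less RNA per cell cannot be told apart, and the part of these cell types in the differences of Stx11 and Vamp5 was not tested.

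Of the other genes of the lytic granule pathway named next, Rab27a fell with Stx11 and the rest did not pass. Sytl3, a Rab27 effector described further below, fell too (limma adjusted p = 0.0262). Stxbp2, the Munc18 family protein that binds Stx11, had log2 intensities of 10.96, 10.80 and 10.67 in MR-positive and 11.01, 10.83 and 10.70 in MR-negative cells. Its difference was -0.03 ± 0.14 (95% interval -0.36 to 0.29, adjusted p = 0.915). Rab27a, the small GTPase that docks lytic granules, fell by 1.92 ± 0.17 (limma adjusted p = 6.57e-04), Unc13d, a priming factor that acts with it, differed by -0.22 ± 0.13 (adjusted p = 0.353), and Prf1, the pore-forming protein perforin, by -0.52 (adjusted p = 0.179). Snap23 and Vamp8, which act in regulated secretion in many blood cells, differed by -0.27 ± 0.14 and -0.05 ± 0.13 (adjusted p = 0.255 and 0.853). Stxbp2 was set beside Stx11 after its values were seen. The log2 difference of Stx11 minus that of Stxbp2 was -1.56 (exact permutation test, p = 0.1). The smallest p this test can give with these arrays is 0.1, so it cannot decide whether the genes differ at a threshold of 0.05.

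**Figure D2:**
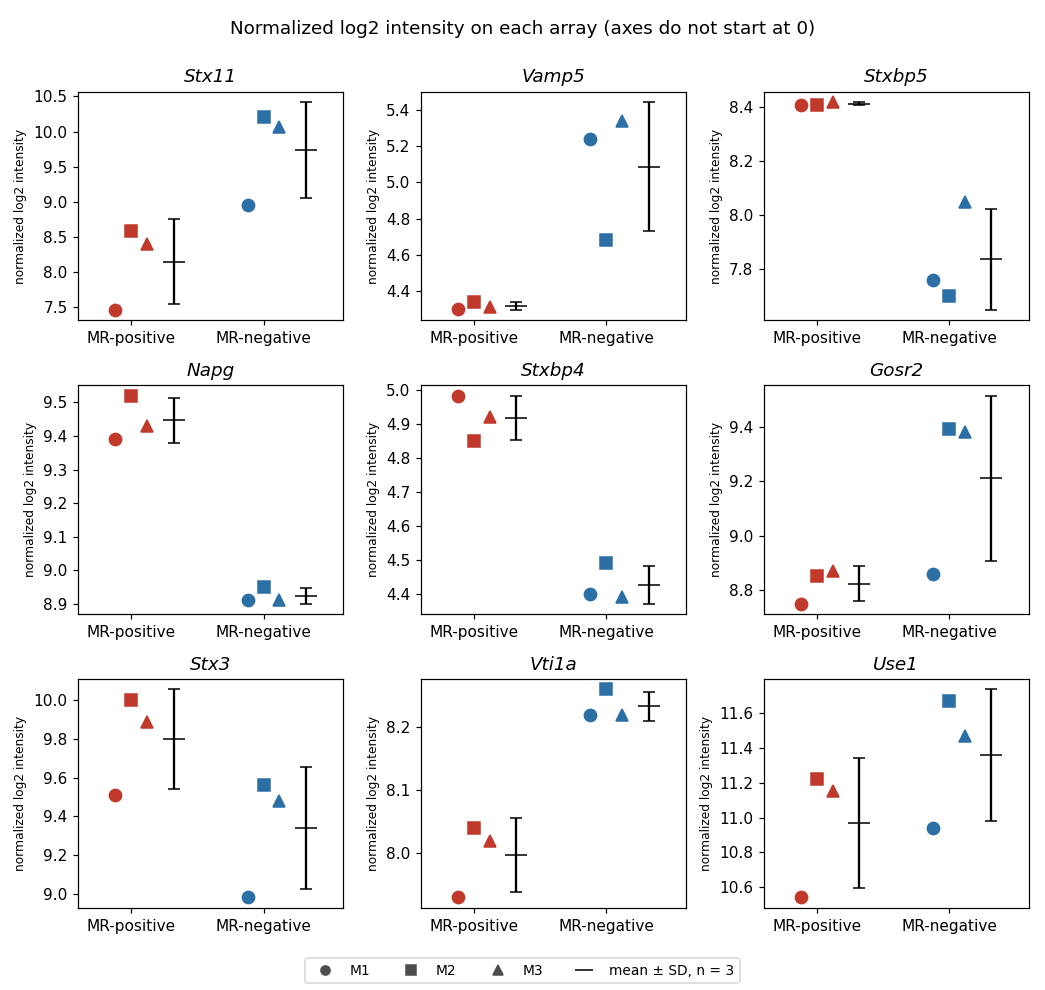
Normalized log2 intensity of 9 SNARE genes on each MR-positive and MR-negative array (symbols by title number M1 to M3), with the mean and SD of each population (n = 3). The populations do not overlap for Stx11, Vamp5, Stxbp5, Napg, Stxbp4 and Vti1a, and they overlap for Gosr2, Stx3 and Use1.

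Vamp5, an R-SNARE first described in muscle cells and also called myobrevin, was the other gene that fell. Its log2 intensity was 4.30, 4.34 and 4.31 on the MR-positive arrays and 5.24, 4.68 and 5.34 on the MR-negative arrays. It was detected on 0 of 3 MR-positive and 3 of 3 MR-negative arrays, so it entered the tested set only through the population where it is high. The level was at least 1.46-fold lower in MR-positive cells. This bound takes, on each MR-positive array, the higher of its own level and the lowest level of a detected probe. It compares means on the scale used here and carries no interval. The test covered the measured log2 difference of -0.77 (limma adjusted p = 0.0329) and not this bound. Vamp5 did not pass without the MR-positive array of M1 (0.0735), M2 (0.0979) or M3 (0.108). Nor did it pass without the MR-negative array of M1 (0.062) or M3 (0.121), or both M1 arrays (0.0676). Leaving out the MR-negative M2 array kept it past the threshold (0.0088). With an offset of 50 in the background correction its measured difference was -0.34 (limma adjusted p = 0.0711). Without a filter on dim probes its adjusted p was 0.114.

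The next protein-coding gene to Vamp5 on chromosome 6 in the reference gene table is Vamp8, with 0 others between them. Vamp8 encodes an R-SNARE of late endosomes and secretory granules, and its log2 intensity was 9.90, 10.00 and 9.96 in MR-positive and 9.86, 9.99 and 10.17 in MR-negative cells. The populations overlapped, and the 95% interval of its difference ran from -0.34 to 0.24. Vamp8 was set beside Vamp5 after its values were seen. The remaining R-SNAREs had differences from -0.17 to 0.32 and none passed by limma. They were Vamp1 and Vamp2 (-0.17 and 0.06), the synaptobrevins of secretory vesicles, Vamp3 (0.30), which acts on recycling endosomes, Vamp4 (0.32) of the trans-Golgi network, Vamp7 (0.08) of lysosomes, and the lipid-anchored Ykt6 (0.03). Vamp1 was detected on 1 of 3 MR-positive and 3 of 3 MR-negative arrays.

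The 3 genes that rose encode regulators of SNAREs. Stxbp5 encodes tomosyn, which binds syntaxins through a VAMP-like segment and holds back fusion. Its log2 intensity was 8.41, 8.41 and 8.42 on the MR-positive arrays and 7.76, 7.70 and 8.05 on the MR-negative arrays. All MR-positive arrays were above all MR-negative ones. MR-positive cells had a 1.5-fold higher level (log2 difference 0.58 ± 0.13, limma adjusted p = 0.0274). A dimmer Stxbp5 probe gave a log2 difference of 0.22 ± 0.16 and missed the threshold (adjusted p = 0.44), and the mean of both probes gave 0.40 (adjusted p = 0.0719). Stxbp5 did not pass without the MR-positive array of M1 (0.0608), M2 (0.0922) or M3 (0.0959) or the MR-negative array of M1 (0.0519) or M2 (0.0943), and passed without that of M3 (0.0355) and without both M1 arrays (0.0486). Of 9 tested macrophage markers 2 rose, Mertk and C1qc, and 0 fell (4 and 1 with the title number as a block). Their sums were 9066 to 9945 in MR-positive and 6555 to 8291 in MR-negative cells. Cd14, the brightest of them (mean log2 12.27 against 11.61), did not pass (limma adjusted p = 0.053), nor did C1qb (0.0622). Adgre1, Csf1r, C1qa and Fcgr1 differed below 0 without passing, and Apoe by 0.01. The part of these markers in the rises of Stxbp5, Napg and Stxbp4 was not tested. The relative of Stxbp5, Stxbp5l, tomosyn-like, differed by 0.16 ± 0.13 (adjusted p = 0.503).

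Napg encodes the gamma form of the soluble NSF attachment protein. Its log2 intensity was 9.39, 9.52 and 9.43 on the MR-positive arrays and 8.91, 8.95 and 8.91 on the MR-negative arrays. The populations were further apart than either was spread, at 9.45 ± 0.07 in MR-positive and 8.93 ± 0.02 in MR-negative cells (SD, n = 3 each). The level was 1.43-fold higher in MR-positive cells (0.52 ± 0.11, limma adjusted p = 0.0209), a second probe gave 0.55 ± 0.13 (adjusted p = 0.0278), and another, dimmer probe gave 0.29 ± 0.13 and did not pass (adjusted p = 0.202). Napg passed without either M1 array (0.0394 without the MR-positive and 0.0367 without the MR-negative one) and without both (0.0237). It missed the threshold when an M2 array was left out (0.089 for the MR-positive and 0.0624 for the MR-negative one) or an M3 array (0.0737 for the MR-positive and 0.0867 for the MR-negative one). The alpha form Napa differed by -0.10 ± 0.24 (95% interval -0.67 to 0.47), the beta form Napb, known from brain and detected on 2 of 3 MR-positive and 1 of 3 MR-negative arrays, by 0.09 ± 0.15, and the ATPase Nsf by 0.20 ± 0.12. None of these 3 passed by limma, at adjusted or unadjusted p under 0.05, although every MR-positive array was above every MR-negative one for Nsf (9.70, 9.60 and 9.57 in MR-positive against 9.55, 9.28 and 9.45 in MR-negative cells).

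Stxbp4, also called Synip, binds the plasma membrane syntaxin 4. Its probe was dim, with log2 intensities of 4.98, 4.85 and 4.92 on the MR-positive arrays and 4.40, 4.49 and 4.39 on the MR-negative arrays. It was detected on 3 of 3 MR-positive and 0 of 3 MR-negative arrays and so, like Vamp5, entered the tested set only through the population where it is high. The level was at least 1.32-fold higher in MR-positive cells, a bound on means formed as for Vamp5. The test covered the measured log2 difference of 0.49 (limma adjusted p = 0.0282), and 4 further Stxbp4 probes did not pass the detection filter. Stxbp4 did not pass without the MR-positive array of M1 (0.0723), M2 (0.0771) or M3 (0.0957) or the MR-negative array of M2 (0.0682) or M3 (0.113). Nor did it pass with an offset of 50 (difference 0.21, adjusted p = 0.083). It passed without the MR-negative array of M1 (0.0499) and without both M1 arrays (0.0497). When arrays were scaled to equal medians, which moved the median difference of all named genes from 0.02 to -0.11, none of the rises passed. Stxbp5 then differed by 0.41 (adjusted p = 0.107) and Napg by 0.35 (0.108), and Stxbp4 had an adjusted p of 0.0583. The other syntaxin-binding gene, Stxbp3, of the Munc18 family and a partner of syntaxin 4, differed by 0.17 ± 0.17 (adjusted p = 0.58).

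The promoter sequences of the genes that passed are shown because their levels are those that differed between the populations. Entries were found for 4 of the 5 called genes and for 35 of all 39, in RefSeq on GRCm38.p6. Each line gives the 250 bases before the annotated start site, 5′ to 3′ on the strand of the gene, and capitals mark every match, on either strand, to one of 6 patterns. These were the GC box GGGCGG, the E-box CACGTG, the AP-1 site TGANTCA, the Ets core AGGAAG, the interferon response core (GAAA, any 2 bases, GAAA) and a pattern of NF-κB sites (GGG, any 2 bases, TT, any 1 base, CC). Matches may overlap. The Stx11 window lies at chr10:12964260-12964509, that of Vamp5 at chr6:72380469-72380718, that of Stxbp5 at chr10:9901041-9901290 and that of Stxbp4 at chr11:90638109-90638358, all on the minus strand.
Stx11: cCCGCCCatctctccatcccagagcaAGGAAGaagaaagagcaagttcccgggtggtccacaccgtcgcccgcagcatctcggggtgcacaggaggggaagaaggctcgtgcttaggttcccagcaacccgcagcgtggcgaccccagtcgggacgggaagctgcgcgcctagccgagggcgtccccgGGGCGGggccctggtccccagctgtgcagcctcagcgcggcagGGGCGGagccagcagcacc
Vamp5: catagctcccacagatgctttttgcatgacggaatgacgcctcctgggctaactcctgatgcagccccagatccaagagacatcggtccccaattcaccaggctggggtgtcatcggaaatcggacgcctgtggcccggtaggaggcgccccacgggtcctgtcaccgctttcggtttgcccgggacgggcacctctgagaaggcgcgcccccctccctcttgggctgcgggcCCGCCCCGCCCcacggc
Stxbp5: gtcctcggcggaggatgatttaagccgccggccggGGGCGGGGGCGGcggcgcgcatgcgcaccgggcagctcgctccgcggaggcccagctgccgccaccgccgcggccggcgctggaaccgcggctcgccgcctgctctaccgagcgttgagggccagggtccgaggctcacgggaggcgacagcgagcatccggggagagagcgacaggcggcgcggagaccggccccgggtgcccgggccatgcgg
Stxbp4: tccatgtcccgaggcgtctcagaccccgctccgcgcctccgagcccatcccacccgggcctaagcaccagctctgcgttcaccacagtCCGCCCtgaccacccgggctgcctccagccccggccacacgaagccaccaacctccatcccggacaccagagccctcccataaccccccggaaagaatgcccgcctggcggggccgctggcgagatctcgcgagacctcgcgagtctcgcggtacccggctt

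GC boxes were found 3 times before Stx11, 2 times before Vamp5, 2 times before Stxbp5 and 1 time before Stxbp4, and 32.7% of 32851 promoter windows of this length hold one. The 4 windows were rich in G and C, at 70.0%, 66.0%, 78.4% and 70.0% in the same order, against a median of 52.4%. The Ets core, bound by factors such as PU.1 of myeloid cells, was found 1 time, before Stx11, and 29.5% of all windows hold it. The other patterns, held by 2.98% to 6.75% of windows, are not in these 4. A GC box was present before genes that fell and before genes that rose. A match is a run of letters and was not tested as a binding site.

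Among the other syntaxins, Stx3 came closest to passing. It acts at the plasma membrane and is linked to cytokine and granule release. Its log2 intensity was 9.51, 10.00 and 9.89 on the MR-positive arrays and 8.98, 9.56 and 9.48 on the MR-negative arrays. The populations overlapped and the M1 array was the lowest in each, while the differences within M1, M2 and M3 were 0.53, 0.44 and 0.42. The log2 difference was 0.46 ± 0.20 (limma adjusted p = 0.189), and with the title number as a block Stx3 passed (adjusted p = 0.0143). Its 3 tested probes, annotated to 3 different transcripts, differed by 0.46, 0.67 and 0.60, the second with an adjusted p of 0.0544. When arrays were scaled to equal medians Stx3 differed by 0.28. Stx4a, the gene of syntaxin 4, a SNARE of the plasma membrane, had 8.94, 9.01 and 8.74 in MR-positive and 8.55, 8.65 and 8.66 in MR-negative cells. These values did not overlap, but the difference of 0.27 ± 0.12 did not pass (adjusted p = 0.205).

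The SNAREs of late endosomes showed small differences. Stx7, Stx8 and Vti1b form a fusion complex there together with Vamp8. Stx7 had log2 intensities of 10.77, 10.66 and 10.82 in MR-positive and 10.88, 10.54 and 10.81 in MR-negative cells, a difference of 0.00 with a 95% interval from -0.31 to 0.32. Stx8 differed by 0.12 (interval -0.15 to 0.39) and Vti1b by 0.13 (interval -0.14 to 0.40). All 4 intervals, each from the brightest probe of the gene, exclude a 2-fold change, and by these probes the populations overlapped for each gene. A dimmer Vti1b probe gave 0.40 ± 0.13 without overlap (limma adjusted p = 0.0852), and a dimmer Stx8 probe gave 0.29 ± 0.39 (adjusted p = 0.705). The other dimmer probes of Stx8, Vti1b and Vamp8 gave 0.02 to 0.11. The remaining syntaxins were Stx2 of the plasma membrane (0.22), Stx6 and Stx12 of endosomes (0.10 and 0.13), Stx17 of autophagosomes (0.16), Stx18 of the endoplasmic reticulum (0.07), Stx5a of the Golgi (-0.19) and Stx19 (0.13). In all, 1 of 12 syntaxin genes passed, against 15.3% of all named genes in either direction. By its brightest probe, none of the other 11 had an unadjusted p under 0.05, against 29.3% of all named genes, read likewise. A dimmer Stx3 probe came closer to passing, at 0.67 ± 0.19 (limma adjusted p = 0.0544). Stx19 was detected on 2 of 3 MR-positive and 1 of 3 MR-negative arrays.

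SNAREs of the route between the endoplasmic reticulum and the Golgi, and those of the Golgi, had differences of both signs. By the brightest probe of each gene, none of them passed by limma, at adjusted or unadjusted p under 0.05. Gosr2, a Golgi SNARE also called membrin, had log2 intensities of 8.75, 8.85 and 8.87 on the MR-positive arrays and 8.86, 9.39 and 9.38 on the MR-negative arrays. The MR-negative M1 array lay among the MR-positive values. The difference was -0.39 ± 0.17 (limma adjusted p = 0.187). Its 4 probes gave -0.48 to -0.30, and the dimmer one at -0.48 ± 0.16 had the lowest adjusted p of them (0.102). By its brightest probe Gosr2 passed without the MR-negative array of M1 (0.0259) and without both M1 arrays (-0.53, adjusted p = 0.0241). Use1, a SNARE of retrograde traffic to the endoplasmic reticulum, had 10.54, 11.22 and 11.15 in MR-positive and 10.94, 11.67 and 11.47 in MR-negative cells. Its populations overlapped, but the differences within M1, M2 and M3 were -0.40, -0.45 and -0.31. It did not pass (-0.39 ± 0.25, adjusted p = 0.379), and passed with the title number as a block (adjusted p = 0.028). Gosr1 (0.27 ± 0.16), Bet1 (0.08 ± 0.22) and Bet1l (0.31 ± 0.31), which act in the same steps, did not pass.

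Vti1a, a SNARE of the trans-Golgi network, had 7.93, 8.04 and 8.02 on the MR-positive arrays and 8.22, 8.26 and 8.22 on the MR-negative arrays. The values did not overlap, yet the difference of -0.24 ± 0.11 did not pass (adjusted p = 0.205). Its probes disagreed: the 3 dimmer ones gave -0.13, 0.09 and 0.27, none past the threshold, and the mean over the 4 probes gave an adjusted p of 0.992. Of the 19 SNARE genes with more than 1 tested probe, 15 had all probes on the same side of 0. The others besides Vti1a were Napa, Snap23 and Vamp8. Within the SNAP family, Snap29 (0.02 ± 0.12) and Snap47 (0.11 ± 0.23) did not pass either, and Snap23, a plasma membrane and phagosome SNARE, had 10.14, 10.08 and 10.19 in MR-positive against 10.18, 10.48 and 10.55 in MR-negative cells.

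**Figure D3:**
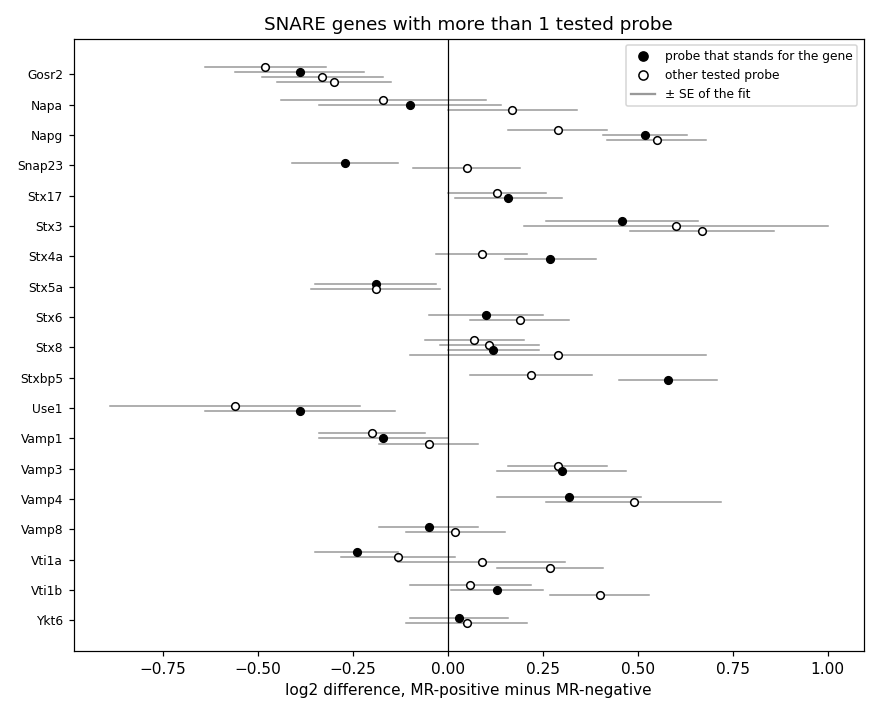
Log2 difference (MR-positive minus MR-negative) of every tested probe of the 19 SNARE genes with more than 1 tested probe, with the standard error of the fit as lines. Filled points are the brightest probe, which stands for the gene. The 4 probes of Gosr2 lie between -0.48 and -0.30 and the 3 of Stx3 between 0.46 and 0.67, while those of Vti1a lie on both sides of 0.

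Set against each other within a title number, the MR-positive array was higher for all 3 numbers in 15 SNARE genes and lower in 8, and the numbers differed in sign for 16. That is 38.5% and 20.5% of the SNARE genes, against 33.2% and 28.1% of all named genes. The 8 lower ones were Stx11, Vamp5, Use1, Gosr2, Snap23, Vti1a, Stx5a and Stxbp2. Populations that did not overlap were found for 5 higher and 3 lower SNARE genes (12.8% and 7.69%), against 18.9% and 15.6% of all named genes. With the title number as a block 4 SNARE genes passed as higher and 3 as lower (10.3% and 7.69%), against 16.4% and 13.6% of all named genes. The block added Stx3 and Use1 to the calls.

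**Figure D4:**
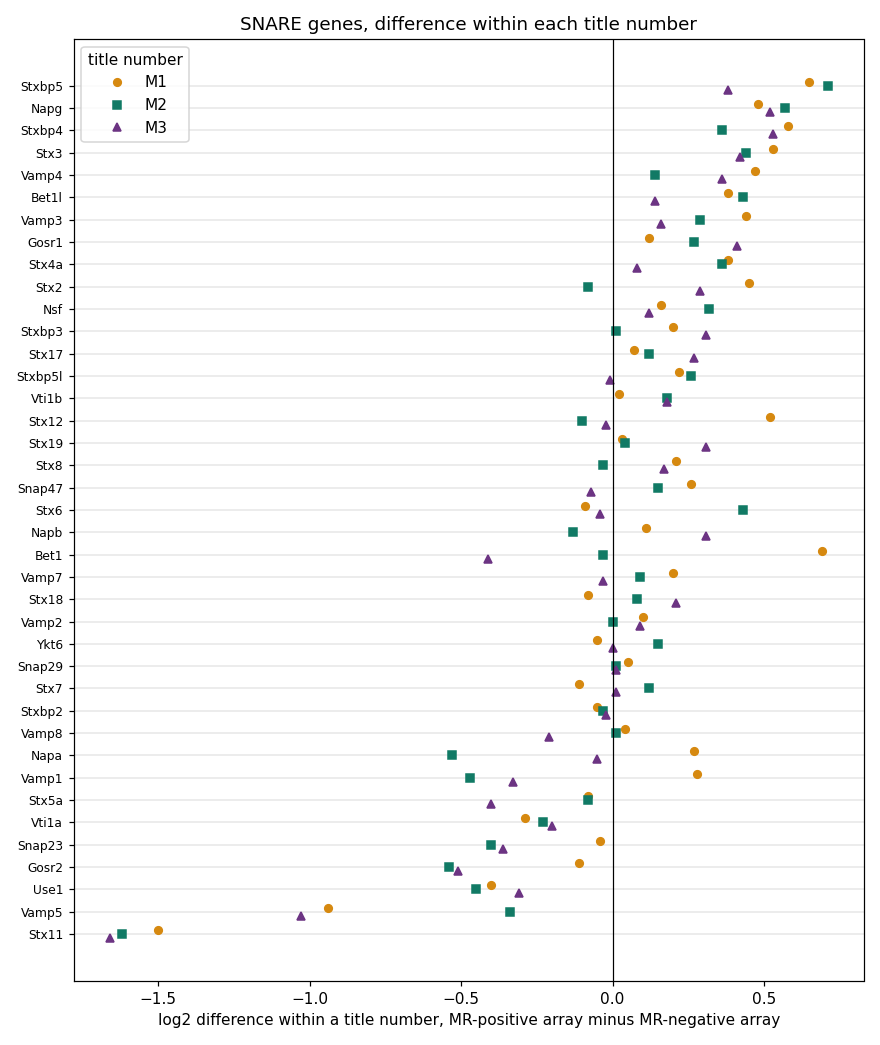
Log2 difference of each SNARE gene within the title numbers M1, M2 and M3 (MR-positive array minus MR-negative array), ordered by the mean difference. Stx11 lies between -1.66 and -1.50 for all 3 numbers, while Bet1 ranges from 0.69 for M1 to -0.41 for M3.

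Of the 44 genes named like SNAREs or their regulators, Stx1a, Stx16, Snap25, Snap91 and Stxbp6 were detected on 0 of 6 arrays. Stx1a and Snap25 are the partners of synaptic vesicle release in neurons, and Snap91 encodes a clathrin assembly protein and no SNARE. Just inside the detection limit, Napb, Stx19, Vamp5 and Stxbp4 were detected on 3 arrays and Vamp1 on 4, and the other 34 were detected on all 6.

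Genes that work with these SNAREs were read from lists that the selection by symbol does not hold. Of 4 further SNAREs tested none passed by limma, at adjusted or unadjusted p under 0.05. Among them Sec22b, an R-SNARE of the endoplasmic reticulum that has been tied to the delivery of its proteins to phagosomes in cross-presentation, differed by -0.14 ± 0.13 (adjusted p = 0.559). Of 4 further Sec1/Munc18 genes 0 passed (2 had an unadjusted p under 0.05). With the block, Vps33b, which acts in traffic to lysosomes, was higher (0.50 ± 0.17, adjusted p = 0.0135 with the block and 0.1 without) and Scfd1, which acts with Golgi syntaxins, was lower (-0.42 ± 0.14, adjusted p = 0.0291 and 0.106).

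Tethering complexes hold a vesicle at its target before SNAREs engage, and their counts are read against the 15.3% of all named genes called in either direction. Of 10 tested genes of the endosomal HOPS and CORVET tethers and related factors 0 passed (2 had an unadjusted p under 0.05, and 2 were higher with the block), with a median log2 difference of 0.18. Of 9 exocyst genes 1 rose, the exocyst-related Exoc3l4 (1.19 ± 0.13, adjusted p = 0.00132), and of 16 Golgi and endoplasmic reticulum tether genes 1 rose, Cog7 of the conserved oligomeric Golgi complex (0.54 ± 0.13, adjusted p = 0.0314). With the block 2 genes rose in each of these lists. Of 11 tested calcium sensors, priming factors and SNARE-binding regulators 1 rose and 2 fell, and 5 had an unadjusted p under 0.05. With the block 2 were higher and 3 lower, which added Unc13b (higher, adjusted p = 0.0383) and Syt9 (lower, 0.0322). Unc13b was detected on 3 of 3 MR-positive and 0 of 3 MR-negative arrays. It thus entered the tested set only through the population where it is high. Snapin, a small protein that binds SNAP proteins, rose by 0.71 ± 0.13 (adjusted p = 0.0123). Besides Rab27a, Sytl3, a synaptotagmin-like Rab27 effector, fell, and it was detected on 0 of 3 MR-positive and 3 of 3 MR-negative arrays (adjusted p = 0.0262). Another 31 genes of this list, most of them synaptotagmins, complexins and other factors of neuronal release, did not pass the detection filter.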

How the data were processed

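Per the labels' protocols, total RNA was freed of DNA with DNase I, and biotin-labelled cRNA made from it was hybridised to Illumina bead arrays. The deposited non-normalized table gives a linear intensity for each of 45281 probes and, per the file headers, a p-value for each, read as detection p against 936 negative controls because its values are whole multiples of 1 in 936. Another deposited table, of intensity too, holds columns whose sorted values differ by at most 0.817 intensity units, close to what quantile normalization gives. No source used here gives the scanner or its software, and no genome was used.

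limma 3.58.1 in R 4.3.3 was used: neqc corrected the background, quantile normalized, added an offset of 16 and took log2. Probes with a detection p under 0.05 on at least 3 of 6 arrays were tested (16686), with lmFit and eBayes, two-sided, and Benjamini-Hochberg adjustment over all probes at a threshold of 0.05. The brightest tested probe stood for each of 9370 genes. The probe annotation gave 1 symbol for 34885 probes, several for 18 and none for 10378. The fit was checked on simulated data.

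The SNARE genes, the lists and the tests were chosen with earlier results of these data known. All SNARE genes are named, and array values are given for those that passed, for the 8 with the smallest p, and for further ones singled out after their values were seen. From the other lists up to 4 passing genes are named, others being singled out likewise. The main fit did not pair arrays. The block and the differences within a title number took arrays of the same title number as pairs. This was done because deviations from the population mean correlated across probes at 0.708 for M1, 0.569 for M2 and 0.275 for M3. M3 did not single out its own partner: the MR-positive M3 array correlated at 0.290 with the MR-negative M2 array, and the MR-positive M2 array at 0.382 with the MR-negative M3 array. A block on that number, other normalizations and filters, and leaving out arrays were tried as alternatives.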

Additional observations from a re-analysis of the deposited data

How the results depend on the processing

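The number of SNARE genes higher in MR-positive cells was 3, and 2 to 4 under cyclic loess, the deposited quantile normalized table, an offset of 50, either other filter, the mean of the probes of a gene, the replicate block (4) and without both M1 arrays. It was 0 with equal medians by limma, where 3 were higher at an unadjusted p under 0.05. The number lower was 2, but 1 with an offset of 50 (Stx11) and 1 without a filter on dim probes. Without that filter the 1 was Vti1a, and both Stx11 (adjusted p = 0.188) and Vamp5 (0.114) missed the threshold. Leaving out 1 array at a time gave 0 to 2 higher and 0 to 2 lower, with 3 to 4 higher and 2 to 5 lower at an unadjusted p under 0.05. The 2 lower, without the MR-negative M1 array, were Stx11 and Gosr2. No single array could be left out with all 5 calls kept. The median difference of 0.10 was -0.04 with equal medians and 0.07 to 0.13 under the other settings, against a spread of 0.23 between arrays of a population. Equal medians gave 32.8% of all named-gene calls as higher in place of 53.4%. With the replicate block 1535 named genes were higher and 1275 lower in place of 767 and 668, and Stx3 and Use1 were the SNARE genes it added. Vti1a passed without a filter on dim probes (adjusted p = 0.035). A filter requiring detection on all arrays of a population left 37 SNARE genes tested. No SNARE gene that passed in any of these settings had its sign turned. The number of arrays limits the precision, and dim probes such as those of Vamp5 and Stxbp4 lie near background.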
